A study of Mus musculus with 24 samples.

Results

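Ionotropic glutamate receptors are ligand-gated cation channels built from 4 subunits, and sensory neurons carry them on their central terminals, axons and cell bodies. The 10 genes described here are the AMPA subunits Gria1, Gria2, Gria3 and Gria4, the kainate subunits Grik1, Grik2, Grik3, Grik4 and Grik5, and the obligatory NMDA subunit Grin1. They were chosen by symbol among the 47643 gene identifiers counted in each library, and each of the 10 symbols matched 1 identifier. All 10 passed the filter on low counts, which left 17178 genes for testing.

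AMPA receptors carry most fast excitatory transmission, and Gria2, when edited at its pore, makes them nearly impermeable to calcium. Grik1, Grik2 and Grik3 form kainate channels on their own, while Grik4 and Grik5 bind kainate with high affinity but need a partner from the first group to form a channel. Grik1 encodes the GluK1 subunit, long known as the main kainate receptor subunit of small-diameter neurons of the dorsal root ganglion (DRG). NMDA receptors pair Grin1 with Grin2 or Grin3 subunits.

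The cells came from control; Rosa-GFP mice, which were Tsc2 flox/+, and from Nav-Tsc2 mice, which were Tsc2 flox/null, both with the alleles Nav1.8-Cre and Rosa26-ZsGreen and all 8 to 9 weeks old and on a mixed C57BL/6 and AJ background. Tsc2 encodes tuberin, a brake on the growth kinase complex mTORC1. Control cells with Cre were heterozygous for Tsc2, and the Nav-Tsc2 mice also carried a null allele in every cell outside the Cre lineage. The Nav1.8 promoter drives Cre in most nociceptors and in some myelinated sensory neurons. From each of 4 mice per genotype (replicates 1 and 2 male, replicates 3 and 4 female), GFP-positive cells of the L4 DRG were sorted into 3 libraries of 100 cells, 3 d after a crush of the sciatic nerve on the other side. Counts of the 3 were added up, and the mouse is the replicate throughout. Libraries held 8339220 to 34228180 counts on genes, and mice 47959617 to 61290435. Levels are given as CPM, counts scaled by library size and by edgeR's TMM factors. Tsc2 was at 20.9 ± 5.18 CPM in control and 8.87 ± 1.52 CPM in Nav-Tsc2 mice (SD, n = 4 each), so it fell by 57.6% with no overlap (adjusted p = 0.00400). In the sorted cells the nociceptor sodium channel Scn10a was at 670 ± 138 and 608 ± 35.1 CPM (SD, n = 4 each). Of 14 glial markers 13 were tested and 1, S100b, fell, with a summed level of 3128 to 3240 CPM in control and 2079 to 2700 CPM in Nav-Tsc2 mice.

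Gria4 and Grik4 are the members that changed between the genotypes. Both lie on the minus strand of chromosome 9 (GRCm38), Gria4 (ENSMUSG00000025892.15) at chr9:4417896-4796234 and Grik4 (ENSMUSG00000032017.14) at chr9:42518135-42944493. Because both moved the same way, the bases just before their starts are shown from the RefSeq promoter table (GRCm38.p6), which held 7 of the 10 members: chr9:4796235-4796484 for Gria4 and chr9:42944494-42944621 for Grik4, both read on the minus strand. Capitals mark the CCAAT box (CCAAT) and the GC box (GGGCGG), looked for on both strands together with TGACGTCA, CACGTG and TATAAA.
Gria4: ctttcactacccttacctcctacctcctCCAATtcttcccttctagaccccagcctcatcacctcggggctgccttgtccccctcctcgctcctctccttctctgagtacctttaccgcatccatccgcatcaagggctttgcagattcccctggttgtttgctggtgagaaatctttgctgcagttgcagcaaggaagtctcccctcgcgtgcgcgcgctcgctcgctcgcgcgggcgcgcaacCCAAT
Grik4: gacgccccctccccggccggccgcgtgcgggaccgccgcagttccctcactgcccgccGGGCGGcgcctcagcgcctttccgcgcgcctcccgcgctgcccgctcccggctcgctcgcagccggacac
The Gria4 stretch of 250 bases held 2 CCAAT boxes and the Grik4 stretch of 128 bases 1 GC box. The pair shared none of the 5 motifs, in these stretches or in their full promoters of 300 bases. Among 32851 RefSeq promoters of 300 bases, CCAAT was found in 37.4% and GGGCGG in 35.7%. The other motifs were found in 1.79% (TGACGTCA), 7.15% (CACGTG) and 13.6% (TATAAA) of all promoters. With 1 pair of genes, a shared or unshared motif cannot be read as a result about their fall. The part of any motif in it was not tested.

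Of the 10 members, 2 were called lower in Nav-Tsc2 than in control mice and 0 were called higher. A call needs an adjusted p below 0.05 together with a log2 fold change beyond 0.5 in size. Over all genes tested, 8.00% were called lower and 9.12% higher. With DESeq2 the counts were also 2 and 0. At an unadjusted p under 0.05 in edgeR, 1 more member, Grik2, was higher. The median log2 fold change of the members was 0.20, beside 0.0082 for all genes. The 2 called members did not overlap between the genotypes, and neither did Grik2. Among all genes tested 12.3% were lower without overlap and 14.6% higher. In bulk samples of sorted cells, fewer cells of a type and less RNA per cell cannot be told apart.

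**Figure D1:**
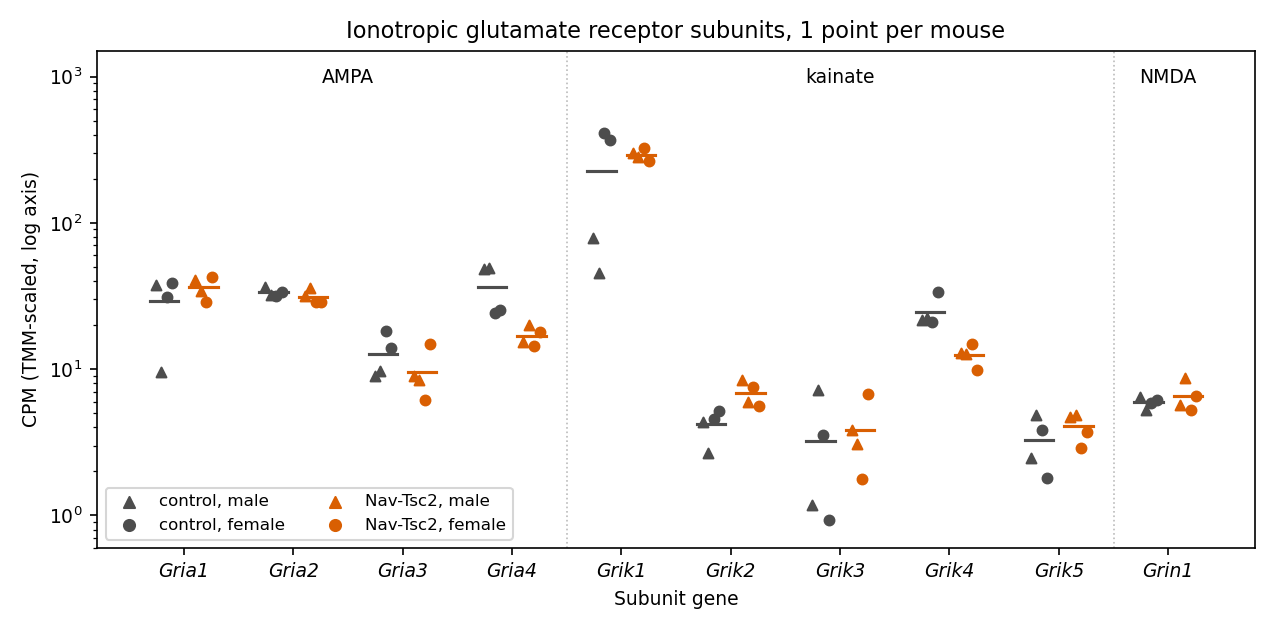
Level of each subunit gene in every mouse, as TMM-scaled CPM on a log axis, with the subunit on the other axis; triangles are male and circles female mice, and short lines are genotype means. Nav-Tsc2 points for Gria4 and Grik4 lie below all control points, and the 4 control points of Grik1 split into 45.3 and 78.3 CPM (male) and 370 and 409 CPM (female).

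Among the AMPA subunits Gria4, which gives channels with fast kinetics, fell. Its level was 48.2, 49.1, 24.02 and 25.2 CPM in control replicates 1 to 4 and 15.2, 19.9, 14.5 and 17.8 CPM in Nav-Tsc2 replicates 1 to 4. Every Nav-Tsc2 mouse was below every control mouse, and the male control mice had the highest levels. The means were 36.6 ± 13.9 and 16.8 ± 2.48 CPM (SD, n = 4 each), a log2 fold change of -1.12 (SE 0.26, adjusted p = 0.0141), so the level fell by 54.0%. Over single libraries, the control range was 16.1 to 64.6 CPM with a median of 39.2, and the Nav-Tsc2 range 7.96 to 21.2 CPM with a median of 16.8, so libraries overlapped where mice did not.

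The other AMPA subunits gave no call. Gria2, which sets calcium permeability, varied least between control mice, with 36.2, 32.1, 31.5 and 33.8 CPM in control and 31.6, 35.8, 28.8 and 28.8 CPM in Nav-Tsc2 mice. These ranges overlapped, and the log2 fold change was -0.10 (SE 0.11, adjusted p = 0.608). Gria1, the subunit that activity recruits to synapses in many neurons, was at 37.5, 9.56, 31.2 and 38.9 CPM in control and 40.4, 34.1, 28.6 and 42.7 CPM in Nav-Tsc2 mice. Control replicate 2 stood well below the other 7 mice, and the log2 fold change was 0.31 (SE 0.36, adjusted p = 0.601). Gria3, on the X chromosome, was at 8.96, 9.64, 18.2 and 14.0 CPM in control and 8.99, 8.39, 6.11 and 14.8 CPM in Nav-Tsc2 mice, with a log2 fold change of -0.41 (SE 0.31, adjusted p = 0.410).

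Among the kainate subunits Grik4, the high-affinity subunit GluK4, fell. Control replicates 1 to 4 had 21.7, 22.2, 21.1 and 33.7 CPM and Nav-Tsc2 replicates 12.9, 12.6, 14.8 and 9.82 CPM. The lowest control mouse was above the highest Nav-Tsc2 mouse, and control replicate 4 stood above the other 3. The means were 24.7 ± 6.01 and 12.5 ± 2.07 CPM (SD, n = 4 each), a log2 fold change of -0.98 (SE 0.20, adjusted p = 0.00743), so the level fell by 49.2%. Single libraries ran from 15.8 to 35.4 CPM in control and from 7.36 to 18.0 CPM in Nav-Tsc2 mice. Gria4 and Grik4 were called lower in each of 16 alternative fits, with adjusted p up to 0.0485 for Gria4 and 0.0393 for Grik4.

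**Figure D2:**
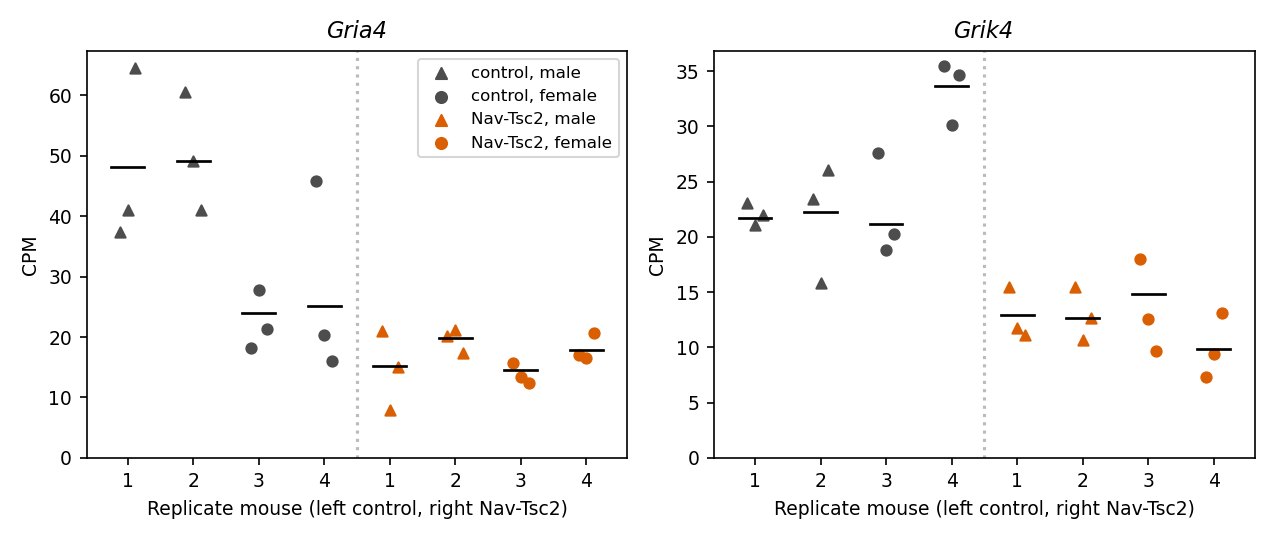
CPM of Gria4 (left) and Grik4 (right) in each of 24 libraries, grouped by mouse, with the level of the summed mouse as a black line; triangles are male and circles female. The black lines of the Nav-Tsc2 mice, 14.5 to 19.9 CPM for Gria4 and 9.82 to 14.8 CPM for Grik4, are all below those of the control mice.

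The remaining kainate subunits gave no call. Grik2, a subunit that forms channels on its own, was at 4.32, 2.69, 4.56 and 5.20 CPM in control and 8.41, 5.93, 7.51 and 5.60 CPM in Nav-Tsc2 mice. All Nav-Tsc2 mice were above all control mice, but the log2 fold change of 0.71 (SE 0.27, unadjusted p = 0.0260) had an adjusted p of 0.0939 and was called in 0 of 16 alternative fits. Grik3, a channel-forming subunit of low glutamate affinity, was at 1.17, 7.21, 3.56 and 0.924 CPM in control and 3.83, 3.06, 1.76 and 6.80 CPM in Nav-Tsc2 mice. The mice of each genotype spread over several-fold and overlapped, and the log2 fold change of 0.26 (SE 0.67, adjusted p = 0.828) changed sign without control replicate 1 or 4 or Nav-Tsc2 replicate 4 (-0.01, -0.04 and -0.16). Grik5, the other high-affinity subunit, was at 2.47, 4.89, 3.85 and 1.79 CPM in control and 4.73, 4.88, 2.91 and 3.71 CPM in Nav-Tsc2 mice, with a log2 fold change of 0.32 (SE 0.37, adjusted p = 0.599).

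Grin1, the subunit every NMDA receptor needs, was at 6.49, 5.23, 5.88 and 6.16 CPM in control and 5.66, 8.67, 5.26 and 6.53 CPM in Nav-Tsc2 mice. The ranges overlapped and the log2 fold change was 0.14 (SE 0.23, adjusted p = 0.728). Of its exonic bases 13.5% also lie in the antisense gene Grin1os, and the library kit does not mark strand, so reads there cannot be assigned to one of the pair.

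Grik1 (ENSMUSG00000022935.14, chr16:87895900-88290265) gave no genotype call but showed the widest spread between control mice of all members. It was at 78.3, 45.3, 409 and 370 CPM in control replicates 1 to 4 and at 301, 280, 324 and 263 CPM in Nav-Tsc2 replicates 1 to 4. The male control mice lay below all Nav-Tsc2 mice and the female control mice above all of them. Over the 4 mice of each genotype the log2 fold change was 0.37 (SE 0.59, adjusted p = 0.717). The SD of log2(CPM + 1) was 1.58 between control mice and 0.13 between Nav-Tsc2 mice.

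Within control mice Grik1 was higher in females than in males by 2.65 on the log2 scale (SE 0.25, adjusted p = 0.00890), the 1 member called among the 10. Over all genes tested, 0.640% were called in that comparison. Within Nav-Tsc2 mice the same difference was 0.01 (SE 0.23, adjusted p = 1.0), where 0.0291% of all genes were called. Put the other way, Grik1 was higher in Nav-Tsc2 than in control males (log2 fold change 2.23, adjusted p = 0.00167) and stood at -0.41 in females (adjusted p = 0.354). Of all genes tested, 16.3% were called between the genotypes in males and 7.29% in females. The genotype effect on Grik1 differed between the sexes by -2.64 on the log2 scale (SE 0.34, unadjusted p = 6.0e-05). It did not pass the adjustment over all genes (adjusted p = 0.0796, 0.00582% of genes called). It passed with DESeq2 (adjusted p = 9.81e-13) and without the low-count filter (adjusted p = 4.18e-34). In the other 11 of 13 alternative fits, some of them without 1 mouse, it was not called. The difference ran from -3.09 to -2.30 over the 13 fits. Sex and replicate number coincide in these mice, with 2 mice in each cell, so sex and anything else shared by replicates 1 and 2 cannot be told apart.

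Markers of nonpeptidergic nociceptors, the small-diameter neurons that express Mrgprd and Ret, moved with Grik1. Of 8 such markers, 7 were called higher in female than in male control mice and 0 were called between genotypes with edgeR or DESeq2 (1 higher at an unadjusted p under 0.05). The count of 7 fell in each fit without 1 mouse except that without control replicate 4. It fell also without a Nav-Tsc2 mouse, although those mice are not part of this contrast. Each such fit left 1 mouse in a group, so its count carries little weight. The lowest log2 difference among the 8 markers ran from 0.81 (without control replicate 4) to 1.08 (without control replicate 3) over these fits. Mrgprd differed by 2.84 (adjusted p = 0.0304), Lpar3 by 2.45 (adjusted p = 0.0179) and P2rx3 by 0.96 (adjusted p = 0.0380) on the log2 scale. The mean log2(CPM + 1) of the 8 was 5.75 and 5.40 in the male and 7.69 and 7.39 in the female control mice, and 7.48 to 7.72 in the 4 Nav-Tsc2 mice. The summed level of the list ran from 543 to 2229 CPM in control and from 2250 to 2589 CPM in Nav-Tsc2 mice, and no marker of the list was at 0. The part of these markers in the Grik1 difference was not tested.

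Grik1 also followed these markers between the libraries of single mice. Control replicate 2 held 1.90, 13.6 and 99.6 CPM of Grik1 in its 3 libraries of 100 cells, and control replicate 1 held 134, 89.1 and 29.7 CPM. The spread between libraries of a mouse, 1.07 as an SD of log2(CPM + 1), was the largest of the members, beside 0.29 for Gria2 and for Grik4. Over deviations of the 24 libraries from their mouse means, among 8452 other genes with a mean of at least 10 CPM, the genes most like Grik1 were Serping1 (Pearson r = 0.98), Ccdc68 (r = 0.93) and Mrgprd (r = 0.92). The other 7 nonpeptidergic markers had r between 0.34 and 0.83 with Grik1. These libraries share mice and depth, so the values are a description.

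**Figure D3:**
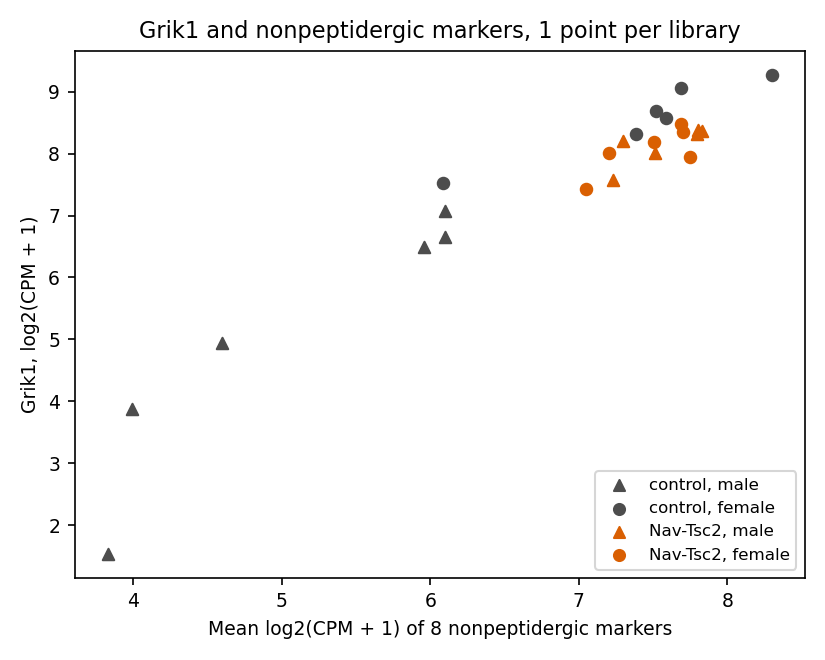
Grik1 as log2(CPM + 1) against the mean log2(CPM + 1) of 8 nonpeptidergic markers, 1 point per library of 100 cells, triangles male and circles female. The libraries with the least of both are from male control mice, down to 1.90 CPM of Grik1, while the 12 Nav-Tsc2 libraries sit together between 171 and 357 CPM.

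For Gria4 the female minus male difference in control mice was -0.98 (SE 0.19, adjusted p = 0.0759), which is not a call, and for Grik4 it was 0.32 (SE 0.28, adjusted p = 0.690). In the same comparison the peptidergic marker Calca, which encodes CGRP, was lower in females (log2 difference -1.16, adjusted p = 0.0302), the 1 of 8 peptidergic markers called, and the median of those 8 was -0.94. Over deviations of the 24 libraries from their mouse means, Gria4 had a Pearson r between -0.61 and -0.43 with the 8 nonpeptidergic markers. Its fall in Nav-Tsc2 mice was 1.47 on the log2 scale in males (adjusted p = 0.00291) and stood at -0.61 in females (adjusted p = 0.0987), and the difference between the sexes, 0.86, had an adjusted p of 0.383. Grik4 stood at -0.78 in males (adjusted p = 0.0999) and -1.15 in females (adjusted p = 0.0506), with a difference between the sexes of -0.37 (adjusted p = 0.848). Of all genes tested, 16.3% were called between the genotypes in males and 7.29% in females. The genes most like Gria4 were Stx6 (r = 0.80), Per3 (r = 0.80) and Hoxa7 (r = 0.78). Those most like Grik4 were Stk11 (r = 0.74), Clcc1 (r = 0.72) and Samd14 (r = 0.68). The most opposite genes reached r of similar or larger size, -0.88 for Gria4 (Tmed10) and -0.76 for Grik4 (Hax1). All are extremes picked from 8452 genes over 24 libraries and were not tested, so they are a description. Some markers of peptidergic nociceptors, the neurons that make CGRP, fell beside Gria4 and Grik4. Of 8, 4 were called lower, Calca, Kit and Smr2 among them, and 0 higher, beside 8.00% and 9.12% of all genes. Of those not called, Tac1 stood at -0.24 (adjusted p = 0.759) and Adra2a at 0.88 (adjusted p = 0.544) on the log2 scale. The list had a summed level of 9487 to 19227 CPM in control and 4141 to 6865 CPM in Nav-Tsc2 mice. Smr2 was at 0.0853 CPM in Nav-Tsc2 mice. Of 5 markers of the Sst and Nppb neurons, 3 were called lower (Sst, Nppb and Il31ra) and 1, Nts, higher, and their median was -3.55 on the log2 scale. Sst went from 73.1 ± 51.3 to 0.133 ± 0.101 CPM (SD, n = 4 each), while the summed level of the list, which Nts dominates in Nav-Tsc2 mice, was 48.8 to 357 CPM in control and 1200 to 3131 CPM in Nav-Tsc2 mice. Of 4 markers of C-fiber low-threshold mechanoreceptors, 1, Th, was called higher, from 99.4 ± 68.8 to 865 ± 545 CPM (SD, n = 4 each), and the summed level was 36.1 to 282 CPM in control and 160 to 1495 CPM in Nav-Tsc2 mice. The calls of Nppb and Th held in 9 and 10 of 16 alternative fits. The part of these markers in the fall of Gria4 and Grik4 was not tested.

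To compare levels between genes, CPM was divided by the length of the merged exons in kilobases. In control mice the order was Grik1 (33.6 ± 28.3), Gria4 (5.81 ± 2.20), Gria1 (4.85 ± 2.25), Grik4 (4.14 ± 1.01), Gria2 (2.15 ± 0.137), Gria3 (1.29 ± 0.435), Grik5 (0.629 ± 0.269), Grin1 (0.612 ± 0.0554), Grik3 (0.359 ± 0.325) and Grik2 (0.316 ± 0.0807), each as CPM per kb (SD, n = 4). The ranges of neighbours in this order overlapped except between Grik4 and Gria2 and between Gria2 and Gria3. In Nav-Tsc2 mice Grik1 (43.4 ± 3.91 CPM per kb) was followed by Gria1 (6.03 ± 1.06), Gria4 (2.67 ± 0.393), Grik4 (2.10 ± 0.347) and Gria2 (2.01 ± 0.213), and Grik1, Gria1 and Gria4 did not overlap with the next gene. Gria4 stood above Gria1 in the 2 male control mice only (7.65 against 6.21 and 7.79 against 1.58 CPM per kb). It stood below Gria1 in the 2 female control mice (3.81 against 5.17 and 4.00 against 6.44 CPM per kb) and in each Nav-Tsc2 mouse.

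As shares of the summed AMPA level per length, Gria4 made up 44.7%, 62.8%, 29.7% and 28.5% in control replicates 1 to 4 and 20.0%, 26.4%, 24.2% and 21.3% in Nav-Tsc2 replicates 1 to 4. Gria1 made up 33.8% ± 14.6 in control and 51.5% ± 3.71 in Nav-Tsc2 mice, Gria2 15.4% ± 1.26 and 17.4% ± 2.59, and Gria3 9.41% ± 3.83 and 8.14% ± 2.17 (SD, n = 4 each). The shares of Gria4 and Gria1 did not overlap between the genotypes, while those of Gria2 and Gria3 did. For Gria1 the ranges were close, 12.7% to 45.9% in control and 47.2% to 55.5% in Nav-Tsc2 mice. The CPM of Gria1 itself overlapped and was not called, and its share also moves with the level of Gria4. The summed AMPA level was 14.1 ± 2.11 and 11.7 ± 1.57 CPM per kb (SD, n = 4 each) and overlapped.

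Grik1 held most of the kainate level, with 71.8%, 54.3%, 92.4% and 89.5% in control replicates 1 to 4 and 91.5% to 92.7% in Nav-Tsc2 mice. Grik4 held 22.4%, 30.03%, 5.38% and 9.18% in control and 3.86% to 4.79% in Nav-Tsc2 mice, without overlap. In control males the share of Grik4 moved with the low level of Grik1, since the CPM of Grik4 was 21.7 and 22.2 there and 21.1 and 33.7 in females. Grik2, Grik3 and Grik5 each held at most 7.61% in any mouse. These shares are descriptions of transcripts, with no test.

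**Figure D4:**
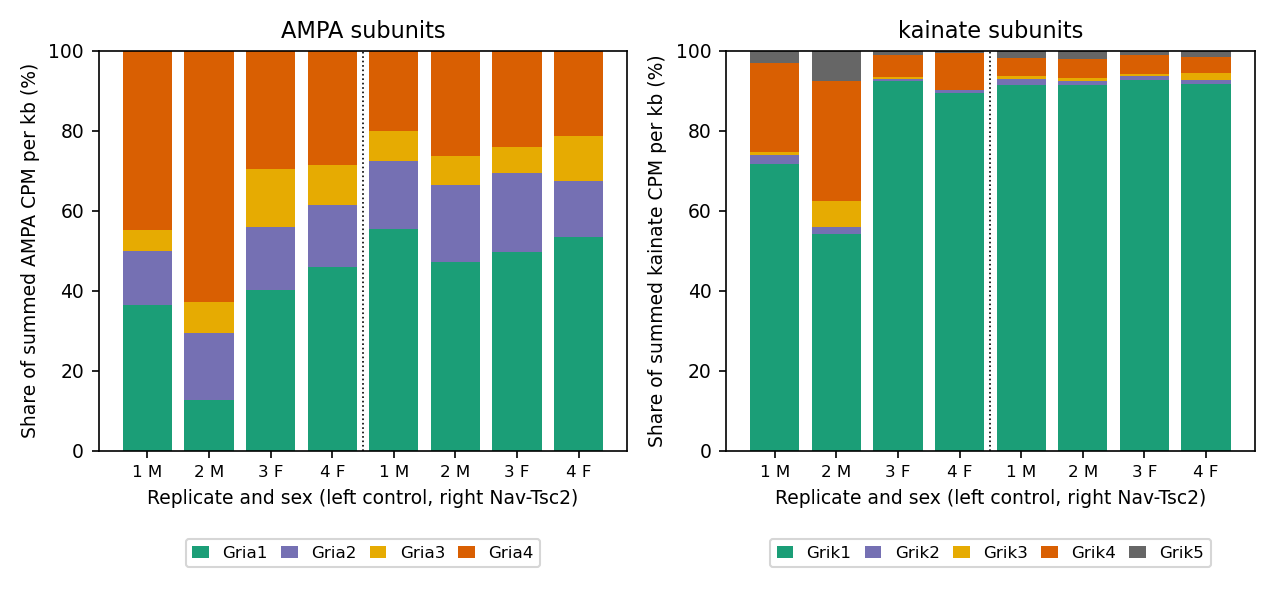
Share of each subunit in the summed CPM per kb of its family, as stacked bars for AMPA (left) and kainate (right) subunits, 1 bar per mouse. Gria4 takes 28.5% to 62.8% of the AMPA level in control and 20.0% to 26.4% in Nav-Tsc2 mice, and Grik1 takes 54.3% to 92.7% of the kainate level over all mice.

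The NMDA and delta subunits outside the 10 genes were read from a list of 8. Grin2a, Grin2b and Grin2c were too low to test, with at most 64 counts in any mouse. Grin2d, an NMDA subunit with slow deactivation, was at 1.61, 3.29, 1.05 and 0.843 CPM in control and 0.185, 0.124, 0.0653 and 0 CPM in Nav-Tsc2 mice. It was lower without overlap (log2 fold change -4.17, SE 0.96, adjusted p = 0.0137), although its Nav-Tsc2 levels rest on 9, 7, 4 and 0 counts and 9.66% of its exonic bases overlap an antisense gene. Grin3a, a subunit that lowers the calcium permeability of NMDA receptors, was at 54.6, 27.4, 26.9 and 26.4 CPM in control and 61.8, 59.1, 62.2 and 47.0 CPM in Nav-Tsc2 mice. Control replicate 1 reached into the Nav-Tsc2 range, and the rise of 0.77 (SE 0.24, adjusted p = 0.0486) was lost in 9 of 16 alternative fits. Those were DESeq2 size factors, upper-quartile scaling and each fit without 1 mouse except control replicate 1, with adjusted p from 0.0548 to 0.117.

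Of the delta subunits, which bind no glutamate as far as is known and act as synaptic organizers, Grid1 rose from 2.71 ± 1.53 to 7.77 ± 1.53 CPM (SD, n = 4 each; log2 fold change 1.52, SE 0.39, adjusted p = 0.0226). Its call was lost with the replicate block and without control replicate 2 or Nav-Tsc2 replicate 1, 2 or 4 (adjusted p from 0.0506 to 0.0613). Grin3b, at no more than 26 counts in any mouse and with 32.1% of its exonic bases shared with Tmem259 on the other strand, had an adjusted p of 0.881. In CPM per kb, Grin3a stood at 2.76 ± 1.13 in control and 4.69 ± 0.584 in Nav-Tsc2 mice (SD, n = 4 each), above Grin1 in each mouse.

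**Figure D5:**
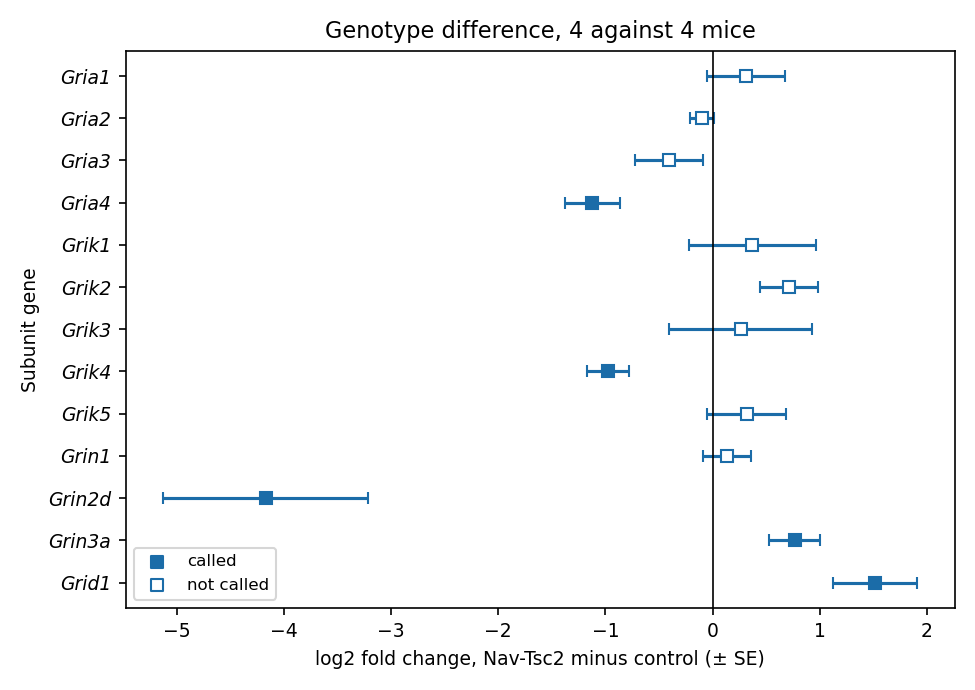
Log2 fold change between Nav-Tsc2 and control mice (4 each) with its SE for the 10 members and for 3 other subunit genes, on a log2 axis; filled squares were called. Gria4 and Grik4 are the filled squares among the members, at -1.12 and -0.98, and Grin2d, Grin3a and Grid1 are filled among the rest.

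Genes that work with these receptors were read from 5 lists of 50 genes in all, of which 45 were tested, 6 were called lower and 4 higher, beside 8.00% lower and 9.12% higher of all genes. Among 17 auxiliary subunits (15 tested), 3 of the AMPA receptor partners fell. Cacng3, a TARP that carries AMPA receptors to the membrane, went from 10.8 ± 2.89 to 1.20 ± 1.13 CPM (log2 fold change -3.16, adjusted p = 0.00663). Cacng4, another TARP, went from 2.99 ± 0.922 to 0.526 ± 0.330 CPM (log2 fold change -2.50, adjusted p = 0.0112). Frrs1l, which helps to assemble AMPA receptors in the endoplasmic reticulum, went from 29.1 ± 7.43 to 8.26 ± 1.95 CPM (log2 fold change -1.82, adjusted p = 0.000707; SD, n = 4 each for all 3). None of the 3 overlapped between genotypes, and each kept its call in 16 of 16 alternative fits.

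Of the kainate receptor partners, Neto1 rose from 4.04 ± 2.05 to 13.1 ± 5.24 CPM (SD, n = 4 each; log2 fold change 1.70, adjusted p = 0.0274), a call lost without control replicate 2 or Nav-Tsc2 replicate 2 or 4 (adjusted p from 0.0587 to 0.0844). Neto2 stood at 20.4 ± 3.26 and 20.5 ± 1.02 CPM (SD, n = 4 each; adjusted p = 0.990). Over the 15 auxiliary genes tested the median log2 fold change was -0.30.

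Of 14 scaffold genes, all tested, 0 were called lower with edgeR (1 with DESeq2, and 2 at an unadjusted p under 0.05) and 2 higher. Grip2, which binds the tails of AMPA receptors, rose from 2.31 ± 1.71 to 8.78 ± 1.08 CPM (SD, n = 4 each; log2 fold change 1.92, adjusted p = 0.0265), a call lost without control replicate 1 or any 1 Nav-Tsc2 mouse (adjusted p from 0.0543 to 0.0667). Homer3, a postsynaptic adaptor, rose from 0.618 ± 0.454 to 3.35 ± 1.45 CPM (SD, n = 4 each; log2 fold change 2.43, adjusted p = 0.0390), a call lost in 7 of 16 alternative fits: with equal library weights and without control replicate 1 or 4 or any 1 Nav-Tsc2 mouse (adjusted p from 0.0597 to 0.110). Of 3 editing enzymes 0 were called with edgeR, while DESeq2 and an unadjusted p under 0.05 each gave 1 lower and 1 higher. Adarb1, which edits the Gria2 pore site, stood at 14.7 ± 7.76 and 29.0 ± 0.877 CPM (SD, n = 4 each; adjusted p = 0.0722).

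Of 8 metabotropic receptors 5 were tested and 2, both from the group that couples to inhibitory G proteins, fell. Grm8 went from 11.9 ± 6.82 to 1.35 ± 1.02 CPM (SD, n = 4 each; log2 fold change -3.13, adjusted p = 0.00637). Grm4 went from 7.03 ± 2.24 to 2.53 ± 0.972 CPM (SD, n = 4 each; log2 fold change -1.47, adjusted p = 0.0256), a call lost with the replicate block and without control replicate 1 or 2 or Nav-Tsc2 replicate 4 (adjusted p from 0.0503 to 0.0624). Of 8 genes that release, take up or convert glutamate, the transporter Slc1a3 fell from 5.86 ± 1.74 to 0.970 ± 0.599 CPM (SD, n = 4 each; log2 fold change -2.59, adjusted p = 0.00357). The transporter Slc1a2 rose from 1.75 ± 1.26 to 7.29 ± 2.07 CPM (SD, n = 4 each; log2 fold change 2.06, adjusted p = 0.0208), a call lost without Nav-Tsc2 replicate 1 or 4 (adjusted p from 0.0524 to 0.0575). Slc1a3 is abundant in satellite glia, and of the glial markers S100b fell beside it, from 939 ± 166 to 98.6 ± 71.2 CPM (SD, n = 4 each), while Fabp7 stood at 211 ± 48.5 and 195 ± 40.5 CPM (SD, n = 4 each). The part of glial RNA in these values was not tested.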

How the data were processed

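RNA-seq counts came from 24 libraries of 8 mice. The authors checked reads with FastQC, aligned them to mm10 with STAR and made the counts per gene with HTSeq, and deposited them per library without normalization; library kits carried no strand mark and no molecular identifiers. A table of the authors' own DESeq2 comparison and normalized values was not used. Reads not assigned to 1 gene were 47.6% to 55.9% of a library's total and were left out. Most of these had an alignment that was not unique (37.5% to 42.6% of the total). Symbols, lengths and coordinates came from GENCODE for GRCm38, where 47224 identifiers matched.

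Counts were added up per mouse, filtered with filterByExpr, scaled by TMM and tested in R 4.3.3 with edgeR 4.0.16 (quasi-likelihood, two-sided, Benjamini-Hochberg over all genes tested). Sex contrasts came from 1 model of genotype, sex and their product. limma 3.58.1 and DESeq2 1.42.0 gave alternatives. Levels between genes were CPM per kb. Log2 values used a pseudocount of 1. Named genes were Tsc2, the members, the other subunits, called genes of the pathway lists, and the 3 genes most like Gria4, Grik4 and Grik1. Scn10a, Neto2, Adarb1, S100b, Fabp7 and the named markers of neuron types fall outside this rule and were picked with their values in view. The members and lists were chosen with earlier results of these data known. Some genes of these lists are not reported here. The test was tried on simulated counts.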

Additional observations from a re-analysis of the deposited data

Results flagged for a closer look

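Of 32 groups of 4 mice checked, 3 held a mouse far from the others, where chance gives about 1 in 20 groups. Grik4 was at 33.7 CPM in control replicate 4, above 21.1 to 22.2 CPM in the other control mice. Grin3a was at 54.6 CPM in control replicate 1, with 26.4 to 27.4 CPM in the other control mice. Grin3b was at 0.470 CPM in control replicate 3 and at 0 in the other control mice. Grik1 was higher in Nav-Tsc2 than in control males (log2 fold change 2.23), while in females it stood at -0.41 (adjusted p = 0.354), which is not a call. The genotype effect differed between the sexes by -2.64 on the log2 scale (adjusted p = 0.0796), also not a call.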

How the results depend on the processing

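Each value was recomputed without each mouse, with equal library weights, with a replicate block, with a sex term, without the filter, with DESeq2 or its size factors, with upper-quartile scaling, and on 24 libraries with a random effect of mouse, as far as these apply. The 2 members called lower and the 0 called higher were the same counts in all of them and without a fold limit, and the genes called over the whole table stayed within 1.5 times 2941 (2145 to 3663). The log2 fold change of Grik1 ran from 0.03 to 1.36. Without 1 mouse, the log2 fold change ran from -0.16 to 1.03 for Grik3 and from -0.035 to 0.23 for Grin1, and so changed sign. The difference of the genotype effect between the sexes also changed sign without 1 mouse for Gria1 (-1.94 to 0.033), Grik3 (-0.63 to 2.50), Grik4 (-0.70 to 0.0093), Grik5 (-0.73 to 0.51) and Grin1 (-0.59 to 0.029), none of them called. The 6 genes called higher among the other subunits and pathway lists numbered 0 to 6 without 1 mouse.

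Genes called for genotype by sex numbered 1 (1583 at an unadjusted p under 0.05), 316 with DESeq2, 618 with no filter, 0 with the replicate block, 0 with equal library weights and 0 to 3 without 1 mouse. Genes called between the sexes within control mice, 110 in all, were 15 (without control replicate 2) to 131 without 1 mouse and 1172 with no filter. There, alternatives chosen after seeing the data left Grik1 called in each, with adjusted p up to 0.0492. Where a control mouse was left out, 1 mouse of a sex remained and was assumed to vary like the other groups, so those fits carry little weight. Gria4 passed with no filter (adjusted p = 0.00136). With the longest transcript as length, Gria2 held 18.3% of the AMPA level in control and 21.02% in Nav-Tsc2 mice, and in Nav-Tsc2 mice Grik1 held 94.9% and Grik4 2.52% of the kainate level. The cause of these changes was not tested.

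Whether equal replicate numbers pair the mice depended on the scale: deviations of same-numbered mice correlated over 8445 genes at 0.0831, 0.108, 0.0187 and 0.107 on log2(CPM + 1) and at 0.184, 0.185, 0.108 and 0.199 with a prior count of 2, beside a limit of 0.1, so the mice were taken to share a number only. The replicate block gave 2445 called genes and log2 fold changes of -1.05 for Gria4 and -0.96 for Grik4, both still called. Grik3 had 0 counts in 1 library of each genotype.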
